A study of Mus musculus and Rattus norvegicus with 60 samples.

Results

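The genes described here are 48 genes of mitosis and of the G2 phase that precedes it, measured in growth plates of mouse and rat, in the zone where chondrocytes proliferate (PZ) and in the hypertrophic zone (HZ). The rule that picked them was their known function in cell division, but the choice was made with earlier results of these data known. All 48 were among the 20155 genes of the mouse table, and 43 were among the 15163 genes of the rat table, where Cenpe, Kif4, Anln, Ncapd2 and Ncaph were not listed. After a filter on low values, 15213 mouse genes and 11760 rat genes were tested, among them 48 members in mouse and 43 in rat, so that no listed member was lost to the filter.

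A cell that leaves G2 switches on the kinase Cdk1 through cyclins A and B and the phosphatases of the Cdc25 family, condenses and untangles its chromosomes, attaches them to the spindle through kinetochores, and waits at the spindle checkpoint until the anaphase-promoting complex, a ubiquitin ligase, releases the sister chromatids. The transcripts of these genes are made in G2 and mitosis and are low in cells that have left the cycle, under the control of the transcription factors Foxm1 and B-Myb and of a repressor complex that binds a promoter element called CHR. In the growth plate, chondrocytes divide in columns in the PZ and then stop dividing and enlarge in the HZ, at the edge where cartilage meets vessels, marrow and bone.

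Each species had 6 groups: HZ and PZ of forelimb proximal phalanges (proximal end) at 1 week, HZ and PZ of the proximal tibia at 4 weeks, and HZ and PZ of the proximal tibia at 1 week. The animals were male C57BL/6 mice and male Sprague Dawley rats with no genetic change or treatment, and each zone was cut from frozen cartilage by laser, so a library holds whatever cells lay in the cut. There were 5 libraries a group, except that PZ of the mouse phalanx had 4, since 59 of the 60 samples had a column in the tables. The study used these libraries to ask how zone, age and bone change gene expression in the growth plate, and here the same comparisons are made for the mitotic genes.

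Depth ranged from 19725320 to 41881803 reads in genes a library in mouse, a large part of them from the ribosomal RNA precursor gene Rn45s, and from 7817389 to 11067652 reads in the shallowest rat group (1-week tibial HZ) to 22149653 to 29033059 reads in the deepest (4-week tibial PZ). The zone labels were checked with genes known to mark each zone: Gdf10, Prelp and Bmp7 for PZ, and Col10a1 (listed in mouse only), Bmp2 and Mmp13 for HZ. The fitted change of each PZ marker was negative in HZ, and that of each listed HZ marker positive, in all 6 growth plates. Some libraries nevertheless stood apart: library 5 of the mouse phalanx HZ and library 3 of the rat 4-week tibial HZ had the highest PZ marker sums of their groups (31021 and 35090 normalized counts), and library 3 of the rat phalanx PZ had the highest HZ marker sum (55983). Markers of endothelium, osteoclasts and macrophages were higher in HZ than in PZ in both species, and those of chondrocytes lower. Of 12 chondrocyte markers in mouse, 9 fell in HZ of the 1-week tibia (median log2 fold change -1.48), 10 of the 4-week tibia (-1.81) and 12 of the phalanx (-2.81); of 11 in rat, 6 (-0.53), 7 (-0.74) and 9 (-1.06) did in the same order. In the 1-week tibia, the summed level of 7 endothelial markers was 2933 to 14262 in HZ libraries, against 193 to 769 in PZ libraries, in mouse, and 1966 to 10832 in HZ libraries, against 439 to 699 in PZ libraries, in rat. Of those 7, 6 were higher and 1 lower in mouse HZ, and 6 were higher in rat HZ; the part of cells of vessels, marrow and bone in the HZ level of the mitotic genes was not tested beyond the values given with the results. In bulk libraries of this kind, fewer dividing cells and less mitotic RNA per cell cannot be told apart.

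The mouse promoters of 6 members are shown because these genes carry the results below: Cdk1, Ccnb2, Top2a and Ttk moved with the group, while Pttg1 in mouse and Cdc25b in rat went the other way. Rat promoters were not available, so the Cdc25b sequence is that of mouse, where the gene did not pass the test between zones. Each is the 300 bases from 250 before to 50 after the start site in RefSeq (GRCm38.p6), read 5′ to 3′ along the gene's strand. Capitals mark the CHR element (TTTGAA or TTCGAA, or TTCAAA on the other strand) and CCAAT boxes (CCAAT, or ATTGG on the other strand).
Cdk1 (chr10:69352863-69353162, minus strand): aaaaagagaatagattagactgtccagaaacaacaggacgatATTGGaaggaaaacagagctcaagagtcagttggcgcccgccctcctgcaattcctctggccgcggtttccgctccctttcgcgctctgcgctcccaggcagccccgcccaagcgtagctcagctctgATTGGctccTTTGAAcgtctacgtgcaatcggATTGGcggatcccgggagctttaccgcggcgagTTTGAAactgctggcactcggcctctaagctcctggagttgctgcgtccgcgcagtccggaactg
Ccnb2 (chr9:70421505-70421804, minus strand): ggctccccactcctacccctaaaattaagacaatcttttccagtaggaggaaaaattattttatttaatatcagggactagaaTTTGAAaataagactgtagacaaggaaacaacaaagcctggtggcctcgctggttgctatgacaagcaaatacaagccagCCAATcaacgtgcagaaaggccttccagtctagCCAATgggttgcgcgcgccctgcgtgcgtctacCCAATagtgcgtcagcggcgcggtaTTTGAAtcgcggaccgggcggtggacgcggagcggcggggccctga
Top2a (chr11:99024140-99024439, minus strand): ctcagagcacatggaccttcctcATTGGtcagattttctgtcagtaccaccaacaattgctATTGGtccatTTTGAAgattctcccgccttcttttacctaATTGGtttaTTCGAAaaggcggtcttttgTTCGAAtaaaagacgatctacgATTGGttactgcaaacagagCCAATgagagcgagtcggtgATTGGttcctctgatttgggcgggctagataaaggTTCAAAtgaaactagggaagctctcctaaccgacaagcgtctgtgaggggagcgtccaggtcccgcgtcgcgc
Ttk (chr9:83834439-83834738, plus strand): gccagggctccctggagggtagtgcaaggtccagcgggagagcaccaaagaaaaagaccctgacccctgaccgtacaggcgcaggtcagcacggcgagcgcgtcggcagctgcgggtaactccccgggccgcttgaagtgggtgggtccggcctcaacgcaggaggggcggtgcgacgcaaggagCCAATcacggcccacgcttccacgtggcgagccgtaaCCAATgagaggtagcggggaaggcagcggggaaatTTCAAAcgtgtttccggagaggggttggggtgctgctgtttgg
Cdc25b (chr2:131186698-131186997, plus strand): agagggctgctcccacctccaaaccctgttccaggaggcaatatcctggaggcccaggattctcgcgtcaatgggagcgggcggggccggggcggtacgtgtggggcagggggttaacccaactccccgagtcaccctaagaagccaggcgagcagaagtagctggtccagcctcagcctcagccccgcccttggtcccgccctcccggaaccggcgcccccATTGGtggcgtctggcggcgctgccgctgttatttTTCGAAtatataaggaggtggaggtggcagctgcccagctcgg
Pttg1 (chr11:43425932-43426231, minus strand): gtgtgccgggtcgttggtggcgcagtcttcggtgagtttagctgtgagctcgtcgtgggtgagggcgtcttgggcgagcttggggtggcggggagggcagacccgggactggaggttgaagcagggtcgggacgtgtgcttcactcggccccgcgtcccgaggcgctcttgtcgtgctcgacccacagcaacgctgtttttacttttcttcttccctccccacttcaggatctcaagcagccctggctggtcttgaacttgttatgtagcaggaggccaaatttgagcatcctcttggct
Of the 48 members, 40 had a promoter in that table. A CHR element was present in 28 of the 40 (70%), against 2179 of 14472 promoters of all genes in the mouse table (15.1%), and a CCAAT box in 28 of 40 (70%), against 5509 of 14472 (38.1%). Both motifs were present in 25 of 40 (62.5%), against 904 of 14472 (6.25%). The Top2a window held 4 CHR elements and 6 CCAAT boxes, the largest numbers among the 6 shown, and the Cdc25b window 1 of each, while the Pttg1 window had neither set of letters. In another annotation Pttg1 begins at base 43426251, so its window lies wholly inside the gene. The bases before that start were not searched, and the lack of motifs may not hold for them. A match is a description of the letters and was not tested for binding.

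The median change of the mitotic genes from PZ to HZ was negative in all 6 growth plates, with the largest number of calls in the rat tibia at 1 week and the smallest in the rat phalanx. In the following, a value is a normalized count (the deposited log2 value turned back to its linear scale), a change is a log2 fold change ± its standard error (SE) from limma on the log2 scale, and a gene is said to have risen or fallen where its adjusted p, corrected over all genes tested, was below 0.05. In the mouse tibia at 1 week, 35 of 48 members fell in HZ and 1, Pttg1, rose; of all genes tested, 23.7% fell and 20.4% rose. The median member change was -0.92, a level in HZ that was 52.8% of that in PZ, against a median of -0.15 over all genes. In the rat tibia at 1 week, 42 of 43 members fell and 1, Cdc25b, rose, when 19% of all genes fell and 22.6% rose. There the median member stood at 29.9% of its PZ level (median change -1.74, against 0.01 over all genes). Among the 43 members listed in both species, 31 fell in both, none rose in both, and Pttg1 rose in mouse and fell in rat. With scores for B lymphocytes and erythroid cells in the model (the marrow scores), 25 rat members were called instead of 43, all of them lower, at a median change of -2.29, when 9.73% of all genes were called in either direction. The mean log2 level of erythroid markers was 5.16 in rat 1-week tibial PZ and 7.98 to 8.66 in the other rat groups. In comparisons with that group, marrow scores and group therefore cannot be told apart. The libraries of the zones also differed in depth. In mouse 1-week tibia Rn45s, the gene of the ribosomal RNA precursor, took 65.7 to 80.8% of the reads in HZ and 44.7 to 60.1% in PZ, which left 5246147 to 10409209 reads in HZ and 9969732 to 15210171 in PZ. Rat 1-week tibia had 7817389 to 11067652 reads in HZ and 11721278 to 15783182 in PZ. The part of depth and of Rn45s in these counts was not tested. Whichever single library was left out, 28 of the 36 mouse calls and 38 of the 43 rat calls held. The change was the larger in rat for 40 of the 43, although the tables were normalized separately and the species were not tested against each other.

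The mean log2 level over the members, a description with no test, shows how far single libraries differed. In mouse 1-week tibia it was 8.38, 8.13, 7.51, 8.21 and 7.83 in HZ libraries 1 to 5, against 9.02, 8.77, 9.09, 8.96 and 9.04 in PZ libraries 1 to 5. In rat 1-week tibia it was 7.71, 7.38, 6.53, 8.02 and 6.79 in HZ, against 9.04, 8.92, 9.02, 8.87 and 8.90 in PZ. No HZ library of either species reached the lowest PZ library. The rat HZ libraries spread far more widely (SD 0.62) than the rat PZ libraries (SD 0.08), with libraries 3 and 5 lowest and libraries 1 and 4 highest.

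**Figure D1:**
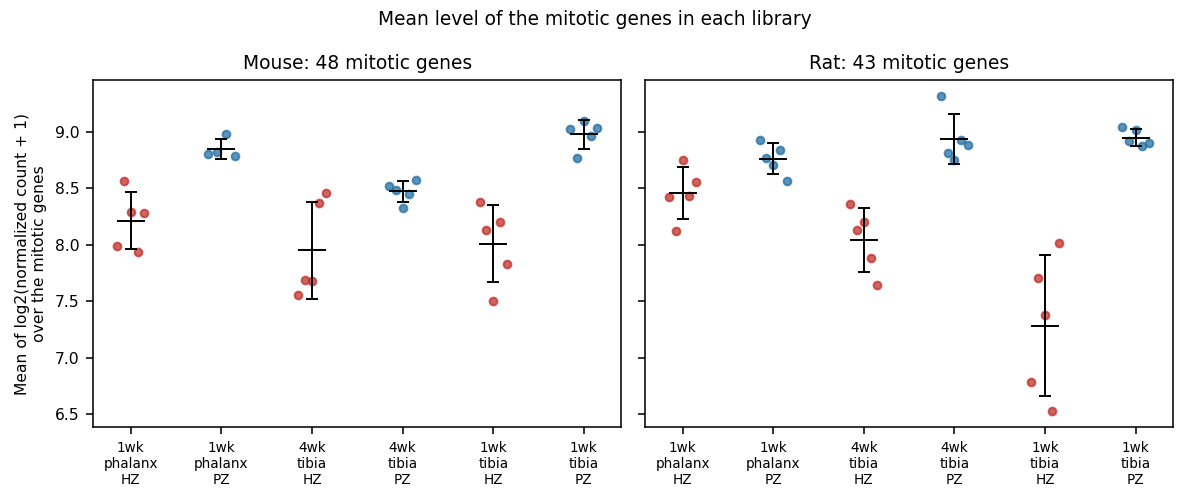
Mean of log2(normalized count + 1) over the 48 mouse or 43 rat mitotic genes, 1 point a library; the bar and whiskers are the group mean ± SD. In the 1-week tibia every HZ library (red) lies below every PZ library (blue), and the rat 1-week tibial HZ has the lowest mean, 7.28.

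Cdk1, its cyclins and the Cdc25 phosphatases make up the engine of mitotic entry. In the 1-week tibia 5 of these 6 genes fell in mouse HZ, all but Cdc25b, and 5 fell in rat HZ, where Cdc25b rose. Mouse Cdk1, the kinase itself, had 277, 132, 59.7, 113 and 107 normalized counts in HZ libraries 1 to 5, against 298, 329, 379, 231 and 478 in PZ libraries 1 to 5. Only HZ library 1 reached the PZ range, and the mean fell to 36.7% of PZ (log2 fold change -1.45 ± 0.30, adjusted p = 0.000179). Rat Cdk1 had 98.2, 172, 49.2, 224 and 34.0 in HZ, against 295, 308, 258, 254 and 392 in PZ, with no overlap (log2 fold change -1.69 ± 0.34, adjusted p = 0.000118). Mouse Ccnb1, which encodes cyclin B1, had 112, 335, 181, 175 and 156 in HZ, against 304, 292, 327, 367 and 390.3 in PZ. Here HZ library 2 lay inside the PZ range and the other 4 below it (log2 fold change -0.89 ± 0.29, adjusted p = 0.0132). Rat Ccnb1 had 443, 309, 49.2, 404 and 145 in HZ, against 1006, 738, 792, 451 and 701 in PZ. All 5 rat HZ libraries were below the lowest PZ library (log2 fold change -1.77 ± 0.40, adjusted p = 0.000838). Cdc25c, a phosphatase that activates Cdk1, was the member with the second largest fall in mouse (log2 fold change -1.80 ± 0.42, adjusted p = 0.000685).

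Cdc25b, the phosphatase of this family that acts early at mitotic entry, behaved unlike its partners. Mouse Cdc25b had 640.0, 80.7, 117, 89.8 and 209 in HZ, against 244, 266, 279, 319 and 258 in PZ; HZ library 1 was above every PZ library and the other 4 below every one, and the gene did not pass the test (log2 fold change -0.74 ± 0.38, adjusted p = 0.113). Without HZ library 1 it did (-1.23, adjusted p = 0.00177). Rat Cdc25b had 1412, 802, 449, 1347 and 789 in HZ, against 328, 269, 271, 292 and 339 in PZ. Every rat HZ library was above the highest PZ library, a rise to 296% of the PZ level (log2 fold change 1.56 ± 0.28, adjusted p = 2.4e-05). In the same HZ libraries 8 of 9 erythroid markers (median log2 fold change 3.24) and 6 of 7 neutrophil markers (3.23) were higher. Erythroid marker sums were 5615 to 13507 in HZ and 2349.8 to 2770.2 in PZ, and neutrophil marker sums 492 to 1961 in HZ and 41.3 to 190.4 in PZ, with Prtn3 and Ltf at 0 in both zones. With the scores for B lymphocytes and erythroid cells in the model the rise of Cdc25b was lost (0.17, adjusted p = 0.894). The erythroid markers themselves separate these zones, so the scores and the zone cannot be told apart here.

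Among the mitotic kinases, 2 of 5 fell in mouse HZ (Aurka and Melk) and 5 of 5 in rat HZ. Mouse Plk1, the polo-like kinase needed for spindle assembly and cytokinesis, had 347, 126, 140.1, 342 and 80.7 in HZ, against 199.9, 291, 239.5, 433 and 321 in PZ. The groups overlapped, with HZ libraries 1 and 4 within the PZ range (log2 fold change -0.70 ± 0.36, adjusted p = 0.111), and without HZ library 1 or without HZ library 4 it passed the test (-0.94, adjusted p = 0.0318 and 0.0352). Rat Plk1 had 217, 206, 266, 245 and 161 in HZ, against 675, 316, 603, 398 and 475 in PZ, and the groups did not overlap (log2 fold change -1.14 ± 0.25, adjusted p = 0.000397). Melk, a kinase made in dividing cells, had the second largest fall among rat members, to 13.8% of PZ (log2 fold change -2.85 ± 0.32, adjusted p = 7.08e-09). Its rat values were 58.6, 38.2, 26.8, 59.8 and 29.3 in HZ, against 233, 285, 353, 266 and 370.4 in PZ, with a wide gap between the groups.

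The chromosomal passenger complex, which corrects wrong attachments of chromosomes to the spindle, is formed here by Aurkb, Birc5 and Incenp. 2 of the 3 fell in mouse HZ and 3 in rat HZ. Aurkb, its kinase, had the largest fall of all mouse members. Mouse Aurkb had 149, 122, 73.5, 210.2 and 105 in HZ, against 552, 369, 589, 539 and 538 in PZ, and the highest HZ library was well below the lowest PZ library, number 2 (log2 fold change -2.03 ± 0.25, adjusted p = 4.75e-08). Rat Aurkb had 105, 76.4, 98.3, 205 and 125 in HZ, against 561, 507, 465, 475 and 442 in PZ, again without overlap (log2 fold change -2.07 ± 0.26, adjusted p = 6.81e-08). The HZ level was 24.5% of PZ in mouse and 23.7% in rat.

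The spindle checkpoint delays anaphase until each chromosome is attached. 4 of its 5 genes fell in mouse HZ, all but Bub3, and 5 of 5 in rat HZ. Mouse Bub1, a checkpoint kinase, had 219, 132, 199.8, 215 and 117 in HZ, against 356, 354, 362, 333 and 297 in PZ, with no overlap (log2 fold change -0.99 ± 0.25, adjusted p = 0.00189). Rat Bub1 had 680.3, 405, 169.8, 1017 and 381 in HZ, against 1194, 1562, 1511, 1658 and 1643 in PZ; library 4 came closest to the PZ range without reaching it (log2 fold change -1.74 ± 0.29, adjusted p = 1.3e-05). Bub3, which also has roles outside mitosis, changed less. Mouse Bub3 had 595, 409, 404, 338 and 334 in HZ, against 371, 560.2, 563, 516 and 562 in PZ, and HZ library 1 was above every PZ library (log2 fold change -0.32 ± 0.22, adjusted p = 0.247). Rat Bub3 had 406, 361, 244, 300.4 and 250.1 in HZ, against 492, 499, 635, 538 and 469 in PZ, without overlap (log2 fold change -0.77 ± 0.20, adjusted p = 0.00212). Ttk, the checkpoint kinase also called Mps1, fell to 32.4% of PZ in mouse and 15.2% in rat (log2 fold change -2.72 ± 0.49, adjusted p = 3.46e-05).

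Exit from mitosis was represented by Cdc20, Ube2c and Pttg1, and these 3 differed from each other. Mouse Cdc20, the activator of the anaphase-promoting complex, had 74.7, 144, 204, 139 and 91.1 in HZ, against 263, 349, 447, 311 and 402 in PZ, with no overlap (log2 fold change -1.50 ± 0.39, adjusted p = 0.00211). Rat Cdc20 had 27.6, 76.4, 44.7, 68.3 and 58.7 in HZ, against 226, 182, 342, 209 and 149 in PZ, also with a clear gap (log2 fold change -2.01 ± 0.38, adjusted p = 5.41e-05). Ube2c, the ubiquitin-conjugating enzyme of the same ligase, changed less. Mouse Ube2c had 877, 559, 225, 392 and 804 in HZ, against 617, 534, 768, 599.9 and 722 in PZ; 2 HZ libraries were above and 2 below the PZ range (log2 fold change -0.33 ± 0.28, adjusted p = 0.356). Rat Ube2c had 217, 138, 143, 316 and 145 in HZ, against 499, 361, 217, 237 and 229 in PZ, with only HZ library 4 inside the PZ range. It had the smallest fall among the rat members that passed the test (log2 fold change -0.68 ± 0.26, adjusted p = 0.0315), and the call was lost without HZ library 2, 3 or 5 or PZ library 1 or 2. Pttg1 encodes securin, which holds the protease separase inactive until anaphase. Mouse Pttg1 had 107, 138, 138, 312 and 198 in HZ, against 55.1, 67.7, 90.5, 117 and 139.8 in PZ; it rose, although only HZ libraries 4 and 5 were above every PZ library (log2 fold change 0.89 ± 0.35, adjusted p = 0.0385), and the call was lost without either of these or without PZ library 1, 2 or 3 (adjusted p up to 0.133). This rise was also lost under 7 of 10 other settings, with limma adjusted p of 0.0581 to 0.123, among them the marrow scores, array weights (libraries weighted by how well they fit), a fit of these groups alone and both other scalings. Rat Pttg1 had 51.7, 113, 0, 62.7 and 30.9 in HZ, against 223, 177, 256, 123 and 163 in PZ, with every HZ library below the PZ range and library 3 at 0 (log2 fold change -2.81 ± 0.69, adjusted p = 0.00159).

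Genes of the centromere and kinetochore, the site on each chromosome that grips the spindle, fell in 5 of 6 cases in mouse HZ, all but Ndc80, and in 5 of 5 in rat HZ. Mouse Cenpf had 805, 620.1, 558, 621 and 619 in HZ, against 1374, 1238, 1708, 1489 and 1466 in PZ. Every HZ library was below every PZ library, and the spread within each zone was narrow (log2 fold change -1.18 ± 0.21, adjusted p = 2.73e-05). Rat Cenpf had 1323, 1135, 567, 2048 and 766 in HZ, against 2451, 3056, 3352, 3019 and 3408 in PZ, without overlap (log2 fold change -1.52 ± 0.27, adjusted p = 4.45e-05). Ndc80 encodes part of the complex that binds microtubules directly. Mouse Ndc80 had 187, 104, 91.9, 179.5 and 61.1 in HZ, against 185, 83.9, 205, 170.4 and 167 in PZ; the groups overlapped almost fully, since PZ library 2 was low (log2 fold change -0.44 ± 0.33, adjusted p = 0.29). Rat Ndc80 had 127, 105, 40.2, 229 and 49.4 in HZ, against 354, 373, 369, 376 and 379.8 in PZ, where the PZ libraries were nearly equal and all HZ libraries below them (log2 fold change -2.02 ± 0.34, adjusted p = 1.48e-05). Its partner Nuf2 fell in mouse (log2 fold change -1.73 ± 0.37, adjusted p = 0.00029) and in rat (log2 fold change -1.91 ± 0.33, adjusted p = 1.71e-05). Cenpa, the histone that marks centromeres, was counted at so few reads in rat that its change (log2 fold change -2.44 ± 0.85, adjusted p = 0.02) rests on values of 0 to 18.9 in HZ and 9.98 to 32.0 in PZ.

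Spindle motors and microtubule proteins fell in 5 of 6 cases in mouse HZ and 5 of 5 in rat HZ. Mouse Kif11, the kinesin that pushes the spindle poles apart, had 1155, 484, 315, 487 and 843 in HZ, against 1365, 1104, 1200.3, 1153 and 1174 in PZ; HZ library 1 lay within the PZ range and the other 4 below it (log2 fold change -1.02 ± 0.22, adjusted p = 0.000387). Rat Kif11 had 530.5, 218, 199, 508 and 178 in HZ, against 1202, 1005, 1197, 996 and 917 in PZ, and the groups did not overlap (log2 fold change -1.86 ± 0.24, adjusted p = 1.29e-07). Kif2c, a kinesin that takes microtubules apart at centromeres, had the largest fitted fall of the rat members (log2 fold change -2.87 ± 0.92, adjusted p = 0.0119). That value rests on very low levels, 0, 7.64, 0, 0 and 0 in HZ and 17.8, 18.5, 8.74, 25.3 and 0.938 in PZ, where a fitted change depends on the added count of 1. In mouse, where Kif2c had 26.0 to 128 in HZ and 92.7 to 215 in PZ, the change was -1.10 ± 0.43. Tpx2, which recruits the kinase Aurora A to the spindle, had a small fall in mouse (log2 fold change -0.69 ± 0.26, adjusted p = 0.0315).

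The central spindle and cytokinesis genes, which place and close the cleavage furrow, were the role in which all 6 of 6 members fell in mouse HZ, with a median change of -1.50; all 5 of 5 listed fell in rat HZ. Mouse Prc1, which bundles the microtubules of the central spindle, had 451, 537, 110.3, 565 and 239 in HZ, against 1273, 843, 1087, 888 and 769 in PZ, with no overlap and HZ library 3 lowest (log2 fold change -1.55 ± 0.31, adjusted p = 0.000103). Rat Prc1 had 877, 904, 759.6, 1163 and 851 in HZ, against 1339.6, 1698, 2425, 1582 and 1975 in PZ, a smaller fall, again without overlap (log2 fold change -0.97 ± 0.22, adjusted p = 0.000644). Mouse Anln, which encodes the furrow protein anillin, had 824, 585, 443, 454 and 442 in HZ, against 1368, 1071, 1232, 1159.9 and 1077 in PZ, and no HZ library reached the PZ range (log2 fold change -1.14 ± 0.19, adjusted p = 1.12e-05).

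Proteins of the mitotic chromosome gave the most abundant members. Divided by exon length, Mki67 had the highest level in mouse 1-week tibial PZ, 1074 ± 141 normalized counts per kilobase of exon (SD, n = 5), ahead of Smc4 (453 ± 62.1) and Ccnb2 (400.4 ± 63.2), and Ndc80 the lowest (25.0 ± 7.12). 4 of the 6 genes of this role fell in mouse HZ, and 4 of 4 listed in rat HZ. Mouse Mki67, whose product Ki-67 coats mitotic chromosomes and is widely used to stain cycling cells, had 17933, 5435, 5352, 5286 and 8688 in HZ, against 11733, 8417, 11322, 10696 and 11879 in PZ. It did not pass the test in mouse: HZ library 1 held the highest value of all 10 (log2 fold change -0.51 ± 0.28, adjusted p = 0.141), and without that library it fell (-0.83, adjusted p = 0.00386). Rat Mki67 had 2938, 3249, 2779, 5935 and 2541 in HZ, against 8235, 6320.2, 7736, 6286 and 6972 in PZ, with library 4 nearest to the PZ range (log2 fold change -1.09 ± 0.22, adjusted p = 0.000173). Mouse Top2a, the topoisomerase that untangles sister chromatids, had 2051, 1634, 981, 1481 and 1069 in HZ, against 2455, 1956, 2384, 2409.5 and 2462 in PZ; only HZ library 1 passed the lowest PZ library (log2 fold change -0.74 ± 0.17, adjusted p = 0.000612). Rat Top2a had 1786, 881, 509, 1858 and 619 in HZ, against 3828, 4201, 4263, 3609 and 4201 in PZ, with a gap between groups (log2 fold change -2.03 ± 0.27, adjusted p = 3.94e-07). Smc4 encodes a core subunit of condensin, the complex that compacts chromosomes. Mouse Smc4 had 2419, 874, 1091, 1422 and 1302 in HZ, against 2504, 2005, 2356, 2114 and 2819.6 in PZ (log2 fold change -0.81 ± 0.19, adjusted p = 0.00063). Rat Smc4 had 909, 678, 552, 931 and 474 in HZ, against 2536, 1558, 1984, 1433 and 1691 in PZ (log2 fold change -1.40 ± 0.21, adjusted p = 2e-06). HZ library 1 was inside the PZ range in mouse, and no HZ library was in rat. Its condensin partner Smc2 had the smallest fall among the mouse members that passed the test (log2 fold change -0.66 ± 0.18, adjusted p = 0.00261).

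Of the pair of transcription factors that drive mitotic transcription, Foxm1 fell in both species and Mybl2, which encodes B-Myb, in rat. Mouse Foxm1 had 432, 726, 650.0, 555 and 661 in HZ, against 1540.0, 1149, 1286, 1078 and 1399.7 in PZ, and the groups did not overlap (log2 fold change -1.10 ± 0.24, adjusted p = 0.00041). Rat Foxm1 had 409.9, 164, 129.6, 286 and 145 in HZ, against 992, 796, 655, 486 and 565 in PZ, also without overlap (log2 fold change -1.72 ± 0.29, adjusted p = 9.58e-06). Mybl2 had a change of -0.17, adjusted p = 0.749 in mouse and -0.91, adjusted p = 0.00717 in rat.

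**Figure D2:**
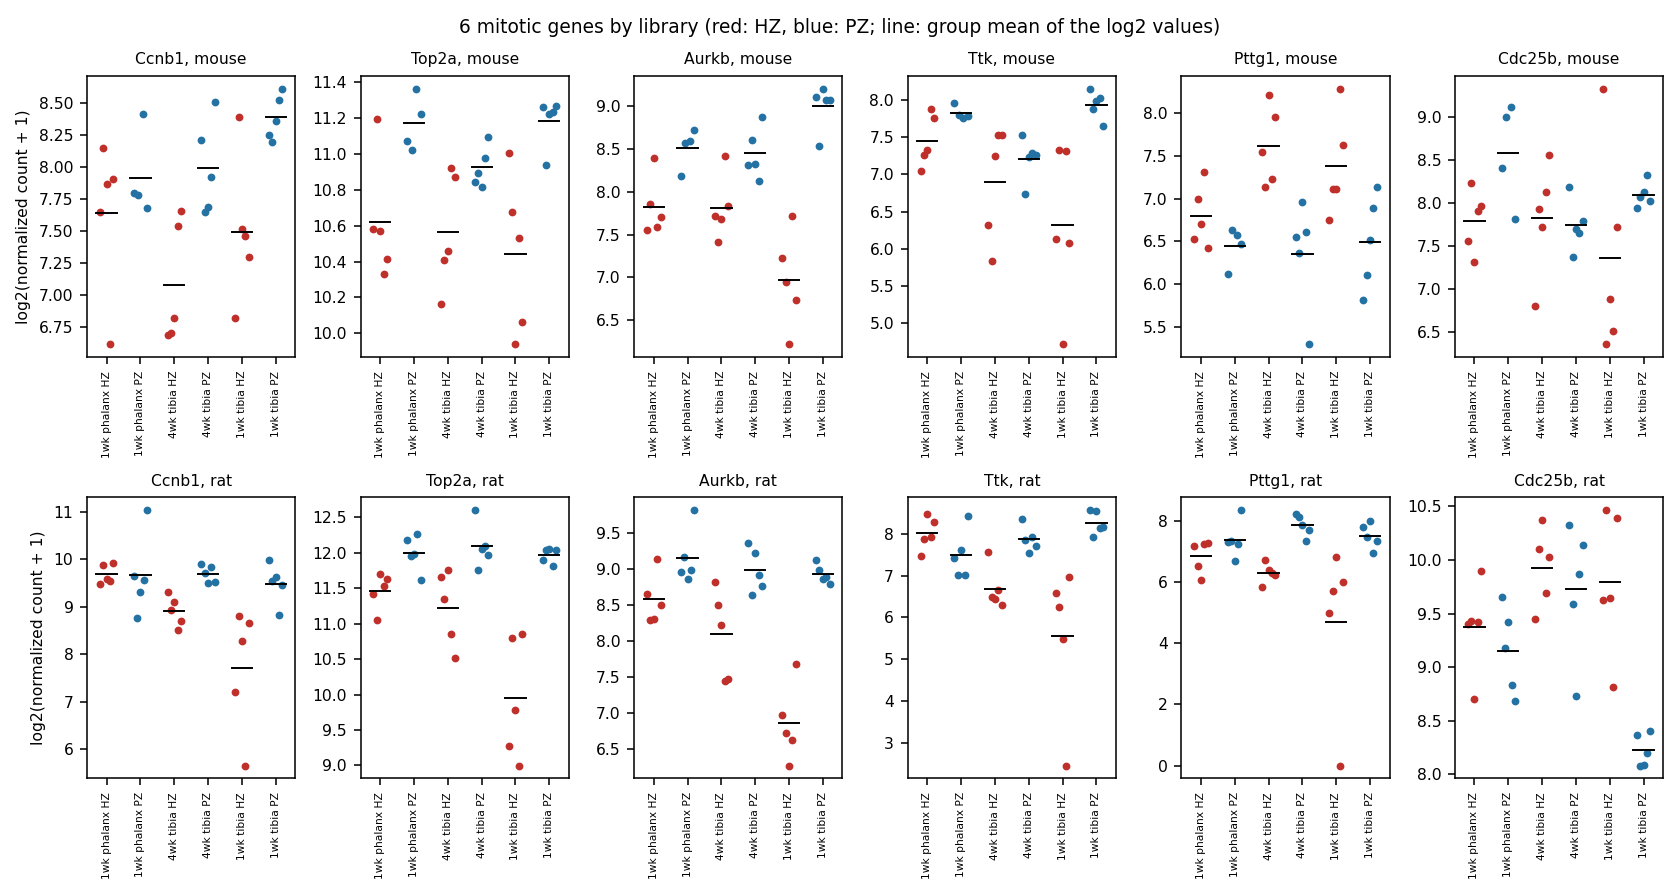
log2(normalized count + 1) of 6 mitotic genes, 1 point a library; red is HZ, blue is PZ and the line is the group mean. Pttg1 is higher in tibial HZ than PZ in mouse and lower in rat, and Cdc25b in rat 1-week tibial PZ (269 to 339 normalized counts) lies below every other rat group.

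In the tibia at 4 weeks the same comparison gave fewer calls and smaller median changes. 16 of 48 members fell in mouse HZ and 1 rose (all genes: 16.6% lower, 18.6% higher), with a median of -0.44 and -0.03 over all genes. 22 of 43 fell in rat HZ and 0 rose (all genes: 7.82% lower, 13.5% higher), with a median of -0.89 and 0.01 over all genes. The largest falls in mouse were those of Spc25 (-1.31, adjusted p = 0.00735), Nuf2 (-1.31, adjusted p = 0.00581) and Prc1 (-1.29, adjusted p = 0.00113), and the smallest among those that fell were Smc4 (-0.58, adjusted p = 0.0137), Aurkb (-0.63, adjusted p = 0.0456) and Hmmr (-0.69, adjusted p = 0.0437). In rat they were those of Nek2 (-1.74, adjusted p = 0.0159), a centrosome kinase, Melk (-1.71, adjusted p = 0.000158) and Cdc20 (-1.34, adjusted p = 0.009), and the smallest were Smc4 (-0.66, adjusted p = 0.0218), Kif11 (-0.80, adjusted p = 0.0145) and Foxm1 (-0.82, adjusted p = 0.0367). Spc25 encodes a partner of Ndc80 at the kinetochore; its mouse values were 66.3, 35.1, 82.9, 97.0 and 81.5 in HZ, against 164, 127, 138, 195 and 269 in PZ, with a gap between them. Cdk1 fell in both species, to 41.2% of PZ in mouse, with 81.7 to 153 in HZ and 213 to 357 in PZ, and to 42.4% in rat, with 96.9 to 199 in HZ and 305 to 431 in PZ. The groups of Cdk1 did not overlap in either species. Pttg1 again rose in mouse HZ, where it had 186, 139, 297, 149 and 248, against 93.0, 81.4, 123, 96.6 and 38.2 in PZ (log2 fold change 1.26 ± 0.35, adjusted p = 0.00496), with every HZ library above the highest PZ library, but the call was lost with the marrow scores in the model (1.18, adjusted p = 0.0662). In rat it had 56.8, 104, 82.6, 78.4 and 73.6 in HZ, against 296, 277, 231, 161 and 209 in PZ, with every HZ library below every PZ library, but it did not pass the test (log2 fold change -1.55 ± 0.69, adjusted p = 0.112). Of the 43 members in both tables, 11 fell in both species: Cdk1, Cdc20, Aurkb, Kif20a, Tpx2, Prc1, Nuf2, Hmmr, Foxm1, Melk and Smc4. Whichever single library was left out, 10 of the 17 mouse calls and 13 of the 22 rat calls held. Among the 11, only Cdk1, Kif20a, Tpx2 and Prc1 held in this way in both species. The mean member level overlapped between zones in mouse, 7.55, 7.69, 7.68, 8.37 and 8.46 in HZ against 8.52, 8.48, 8.33, 8.45 and 8.58 in PZ, since HZ libraries 4 and 5 were near the PZ level. It did not overlap in rat, with 8.36, 8.13, 8.20, 7.88 and 7.64 in HZ against 9.32, 8.81, 8.75, 8.92 and 8.88 in PZ. The rat count rests partly on HZ library 5, the lowest: without it 14 members were called instead of 22, and the mouse count was 11 instead of 17 without HZ library 2. Other omissions raised the counts, to as many as 25 in rat and 19 in mouse. More members were also called with array weights in both species, and with the replicate number as a block in rat. Those counts are given with the processing below.

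In the 1-week phalanx fewer members were called than in the 1-week tibia of the same species. In mouse 17 of 48 fell and 0 rose (all genes: 17.2% lower, 17.9% higher), at a median of -0.64. In rat 9 of 43 fell and 1, Ube2c, rose (all genes: 17.7% lower, 22.9% higher), at a median of -0.29, so that the share of rat members that fell was near that of all genes. Mouse falls were largest for Melk (-2.10, adjusted p = 0.000591), Cdc25c (-1.45, adjusted p = 0.0107) and Prc1 (-1.28, adjusted p = 0.00228), and smallest for Top2a (-0.55, adjusted p = 0.0163), Kif11 (-0.62, adjusted p = 0.0396) and Aurkb (-0.70, adjusted p = 0.0386). Mouse Melk had 123, 77.2, 40.6, 46.0 and 37.0 in the 5 HZ libraries, against 277, 244, 208 and 284 in the 4 PZ libraries, with the highest HZ library far below the lowest PZ library. Rat falls were largest for Nuf2 (-1.47, adjusted p = 0.00055), Bub1b (-1.18, adjusted p = 0.000179) and Incenp (-1.08, adjusted p = 9.19e-06), and smallest for Bub3 (-0.49, adjusted p = 0.0461), Kif23 (-0.71, adjusted p = 0.0191) and Kif20a (-0.76, adjusted p = 0.0016). Rat Incenp, the scaffold of the passenger complex, had 832, 681, 459, 676 and 592 in HZ, against 1584, 1702, 1352, 1343 and 911 in PZ, and only PZ library 5 came near the HZ range. Rat Ube2c had 601, 427, 789, 552 and 617 in HZ, against 377, 215, 223, 323 and 377 in PZ, so every HZ library was above every PZ library (log2 fold change 0.99 ± 0.26, adjusted p = 0.00238). The 5 members that fell in both species were Bub1b, a checkpoint protein, and Cenpf, Kif20a, Incenp and Prc1, which act at kinetochores or on the central spindle. Of the genes followed above, Mki67 had 5099 to 11187 in mouse HZ and 9261 to 15015 in mouse PZ (-0.52, adjusted p = 0.179), and 4734 to 8673 in rat HZ and 6232 to 9616 in rat PZ (-0.29, adjusted p = 0.314), with overlap in both. The mean member level was 7.99, 8.56, 8.29, 7.94 and 8.28 in mouse HZ, against 8.80, 8.82, 8.98 and 8.78 in mouse PZ, without overlap. In rat it was 8.42, 8.12, 8.75, 8.43 and 8.55 in HZ, against 8.93, 8.77, 8.71, 8.84 and 8.57 in PZ, with overlap.

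**Figure D3:**
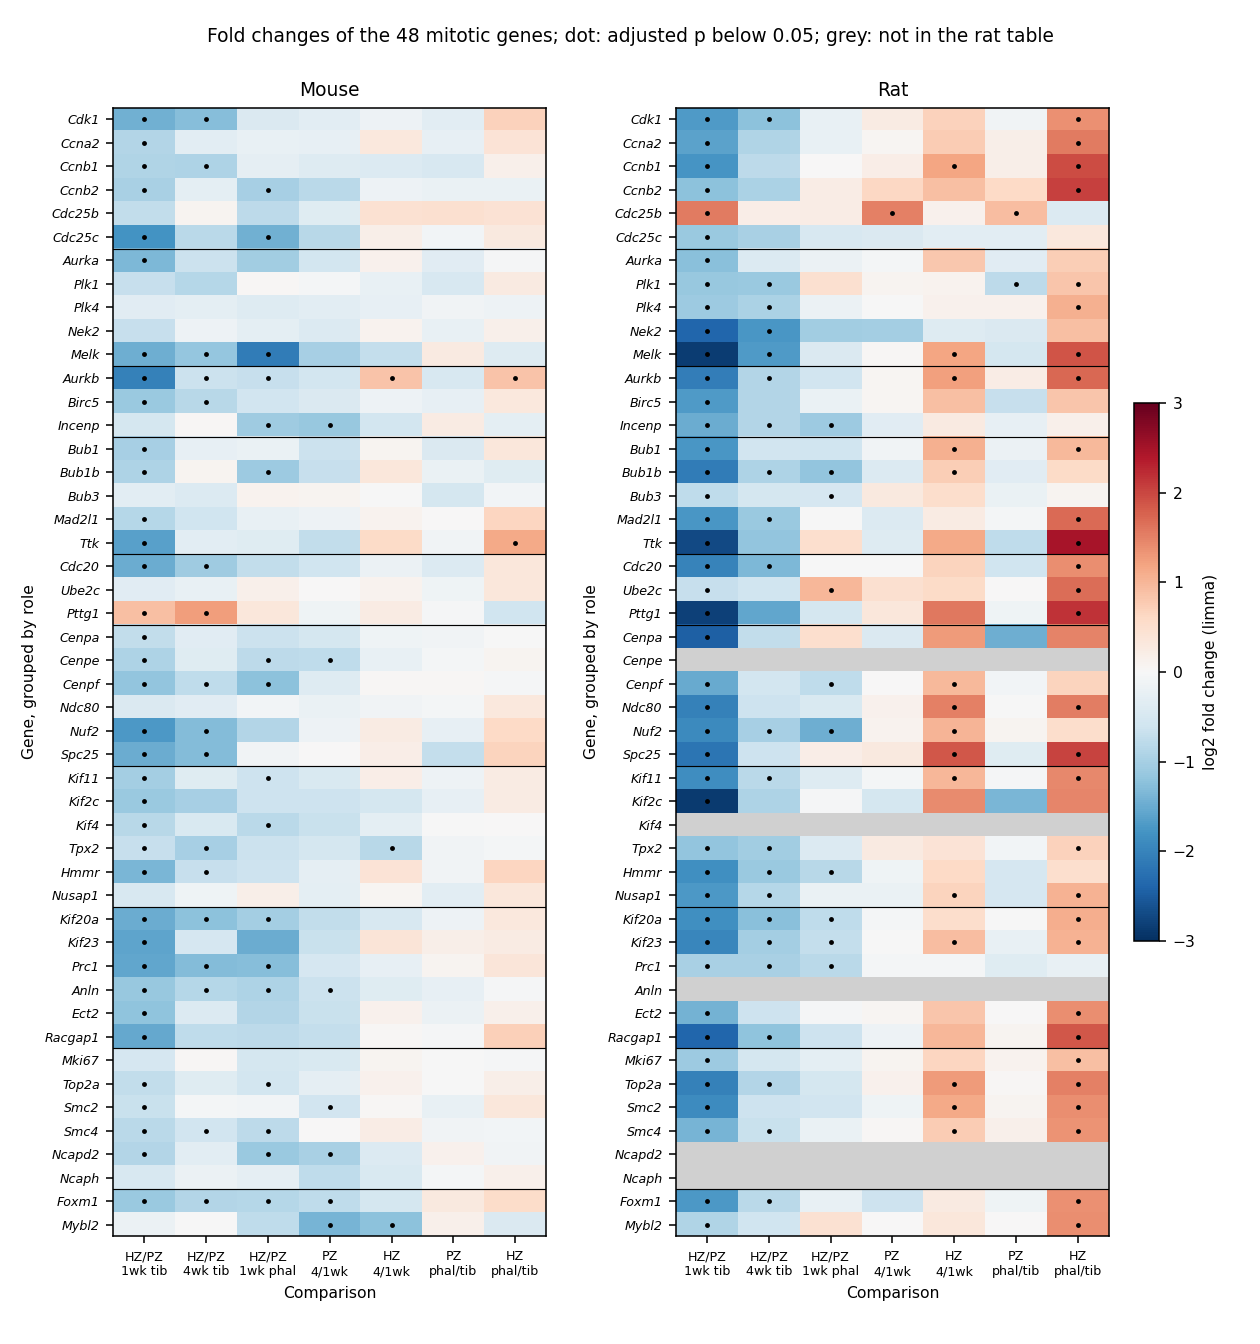
Log2 fold changes (limma) of the 48 mitotic genes in 7 comparisons a species, with genes ordered by role; a dot marks an adjusted p below 0.05 and grey a gene not listed in rat. The column for rat 1-week tibia is blue (lower in HZ) for 42 of 43 genes, and the column for rat phalangeal over tibial HZ is red (higher in phalanx) for 41 of 43.

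Mitotic genes kept a larger share of their PZ level in HZ than Gdf10 and Prelp, which are PZ markers. In the 1-week tibia Gdf10 stood in HZ at 2.48% of its PZ level in mouse and 1.42% in rat, Prelp at 2.51% and 8.25%, and Bmp7 at 10.9% and 34.5%, when the median mitotic gene stood at 52.8% and 29.9%. In mouse no member had as low a share as any of the 3 markers in any of the 3 growth plates. In rat 1-week tibia 27 of 43 members had a lower share than Bmp7, and none had one as low as Gdf10 or Prelp.

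**Figure D4:**
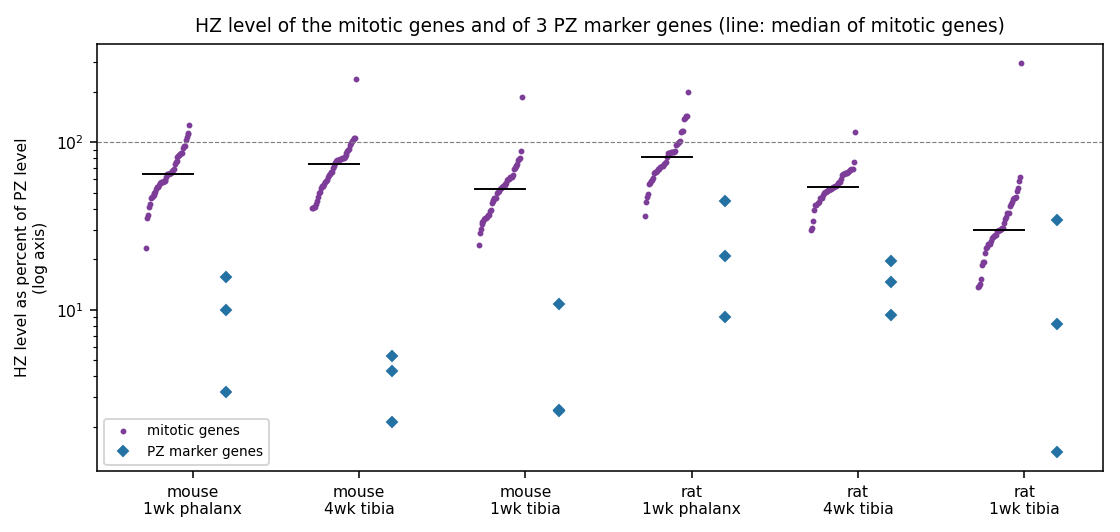
Level in HZ as a percent of that in PZ, from the limma fit, on a log axis; a purple point is a mitotic gene, a black line their median and a blue diamond a PZ marker gene (Gdf10, Prelp or Bmp7). The median mitotic gene lies between 29.9% (rat 1-week tibia) and 81.9% (rat phalanx), above the markers in all 3 mouse plates.

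Whether the zone difference itself varied between growth plates was tested with an interaction term. Between bones at 1 week, rat members differed: for 22 of 43 the change from PZ to HZ was more positive in phalanx than tibia, and for 1, Cdc25b, more negative, when 7.33% and 8.57% of all genes were called in those directions. The median of this difference of log2 changes was 1.39, against 0.04 over all genes. It was largest for Ttk (log2 fold change 3.23 ± 0.69, adjusted p = 0.0015), Melk (log2 fold change 2.42 ± 0.45, adjusted p = 0.000309) and Spc25 (log2 fold change 2.39 ± 0.43, adjusted p = 0.000221), and smallest among those called for Kif20a (1.09, adjusted p = 0.00471), Smc4 (1.20, adjusted p = 0.00529) and Kif23 (1.25, adjusted p = 0.0112). Rat Ttk had 178, 236, 358, 244 and 310.1 in phalangeal HZ, against 169.7, 129, 197, 129 and 345 in phalangeal PZ. In the tibia it had 75.8, 43.9, 4.47, 124 and 95.7 in HZ, against 378, 242, 373, 281 and 285 in PZ. Every tibial HZ library lay below every tibial PZ library, and in the phalanx the zones overlapped. The size of the Ttk difference depends in part on the very low tibial HZ library at 4.47, although the call held whichever single library was left out. Cdc25b differed the other way (log2 fold change -1.35 ± 0.39, adjusted p = 0.0158), its 1-week tibial PZ level being the lowest of the 6 rat groups. With the B lymphocyte and erythroid scores in the model it was not called (-0.16, adjusted p = 0.906), and 18 other members were. Erythroid markers were lowest in that same group, so the scores and the group cannot be told apart for Cdc25b. In mouse only Aurkb was called (log2 fold change 1.33 ± 0.36, adjusted p = 0.0151), 1 member of 48 when 4.38% of all genes were called in that direction, and 2 were called without tibial HZ library 1. Of the 23 rat calls, 16 held whichever single library was left out. Depth was lower in HZ than PZ in the rat tibia. It was higher in HZ in the rat phalanx (17075567 to 22676633 reads a library, against 8550111 to 14672738 in PZ). The part of depth in these calls was not tested.

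**Figure D5:**
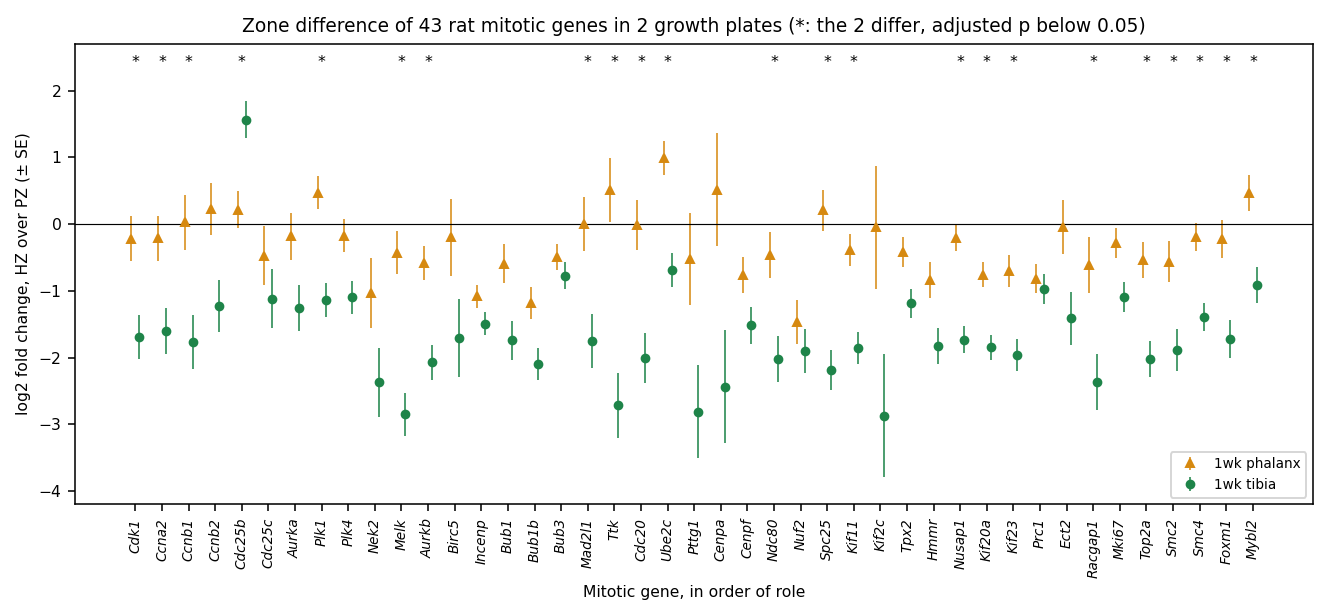
Log2 fold change of HZ over PZ (± SE, limma) for 43 rat mitotic genes in the phalanx (triangles) and the tibia (circles) at 1 week; an asterisk marks genes for which phalanx and tibia differ. Tibial values lie lower for all but Cdc25b, with the widest gap at Ttk (0.51 in phalanx and -2.72 in tibia). Ttk was far lower in 1 tibial HZ library than in the others.

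Between ages in the tibia, the interaction was called for few members. In rat Spc25 (1.57, adjusted p = 0.0276) and Bub1b (1.16, adjusted p = 0.0409) fell less in HZ at 4 weeks than at 1 week and Cdc25b differed the other way (-1.37, adjusted p = 0.036), 2 and 1 of 43 members, when 1.53% and 2.82% of all genes were called. The median difference over rat members was 0.84, and with the B lymphocyte and erythroid scores in the model none was called. These calls rest on single libraries: without 1-week HZ library 4, 10 members were called, all with a more positive change at 4 weeks, without 4-week HZ library 5, 7 were, and without 4-week HZ library 1 none was. Without 1-week HZ library 2, 1-week PZ library 2, 3, 4 or 5, or 4-week PZ library 3, 4 or 5, a single member was called. In mouse Aurkb was again called alone (1.40, adjusted p = 0.0238), 1 of 48, when 0.841% of all genes were; it was not called without PZ library 3 at 1 week, or without HZ library 4 or PZ library 4 at 4 weeks. Aurkb had 210.1, 170.2, 204, 340.2 and 228 in mouse 4-week HZ, against 317, 389, 320.2, 278 and 469 in 4-week PZ. HZ library 4 lay inside the PZ range at 4 weeks, whereas the zones were well apart at 1 week.

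Comparing ages within PZ asks whether dividing chondrocytes change as growth slows. In mouse 7 of 48 members fell at 4 weeks and 0 rose (all genes: 3.39% lower, 5.19% higher), and 44 of 48 had a negative change, with a median of -0.53 and 0.06 over all genes. The 7 were Mybl2 (log2 fold change -1.39 ± 0.38, adjusted p = 0.0174), Incenp (log2 fold change -1.14 ± 0.24, adjusted p = 0.00159), Ncapd2 (-0.96, adjusted p = 0.0396), Cenpe (-0.77, adjusted p = 0.00832), Foxm1 (-0.76, adjusted p = 0.0461), Anln (-0.65, adjusted p = 0.0283) and Smc2 (-0.57, adjusted p = 0.0365). Both transcription factors of the group are among them, but neither call held throughout. When single libraries were left out, Foxm1 lost its call in 8 of 10 cases (limma adjusted p up to 0.126) and Mybl2 in 2 of 10 (up to 0.0556). Foxm1 also lost it under 2 of 10 other settings and Mybl2 under 1. Of the 7 calls, 2, Cenpe and Incenp, held whichever single library was left out. Mouse Mybl2 had 175, 88.4, 86.3, 91.0 and 120.5 in 4-week PZ, against 357, 235, 247, 307 and 292 in 1-week PZ. Mouse Foxm1 had 732, 923, 701, 749 and 689.8 in 4-week PZ, against 1540.0, 1149, 1286, 1078 and 1399.7 in 1-week PZ. The ages did not overlap for either gene. Incenp, likewise without overlap, had 373 to 619 at 4 weeks and 894 to 1271 at 1 week. The mean member level was 8.33 to 8.58 in 4-week PZ and 8.77 to 9.09 in 1-week PZ, without overlap. The count varied with the settings: 30 members were called in a fit of the PZ libraries alone, 25 with array weights, 17 by limma-voom, 17 after scaling to library totals and 3 with the marrow scores, all of them lower. Leaving out single libraries gave 2 (without 1-week library 1 or 4-week library 3) or 3 (without 1-week library 3 or 4-week library 1 or 4). Col10a1, an HZ marker, was also higher in 4-week mouse PZ (3.89, adjusted p = 2.45e-05), as were 4 of 8 osteoblast and 3 of 12 B lymphocyte markers, and the part of these cells in the result was not tested. In rat PZ 1 of 43 members, Cdc25b, rose at 4 weeks and 0 fell (all genes: 9.63% higher, 6.45% lower), with a median of 0.01. Rat Cdc25b had 1284, 768, 424, 932 and 1125 in 4-week PZ, against 328, 269, 271, 292 and 339 in 1-week PZ, with no overlap (log2 fold change 1.50 ± 0.28, adjusted p = 0.000171). Beside it, 9 of 9 erythroid, 7 of 7 neutrophil, 7 of 9 B lymphocyte and 4 of 8 macrophage markers were higher at 4 weeks. Erythroid marker sums were 7948 to 19682 in 4-week PZ and 2349.8 to 2770.2 in 1-week PZ, where the B lymphocyte markers Vpreb1, Igll1 and Ms4a1 and the neutrophil markers Prtn3 and Ltf were at 0. With the B lymphocyte and erythroid scores in the model the sign of Cdc25b turned for age (-0.15, adjusted p = 0.949). Since the erythroid markers separate these ages in PZ, the scores and age cannot be told apart in that fit.

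Within HZ, 15 of 43 rat members rose at 4 weeks and 0 fell (all genes: 6.68% higher, 7.06% lower), with a median of 0.77 and 0.09 over all genes. The rises were largest for Spc25 (log2 fold change 1.86 ± 0.30, adjusted p = 6.21e-05), Ndc80 (log2 fold change 1.52 ± 0.34, adjusted p = 0.00254) and Top2a (log2 fold change 1.28 ± 0.27, adjusted p = 0.00141), and smallest for Nusap1 (0.67, adjusted p = 0.0246), Bub1b (0.75, adjusted p = 0.0319) and Smc4 (0.77, adjusted p = 0.0123). Rat Spc25 had 249.8, 229, 229, 170.5 and 262 in 4-week HZ, against 89.6, 42.0, 71.5, 115 and 27.8 in 1-week HZ, and the ages did not overlap. Rat Ndc80 had 325, 248, 367, 249 and 169.8 in 4-week HZ, against 127, 105, 40.2, 229 and 49.4 in 1-week HZ; library 4 of the 1-week group lay within the 4-week range. By role, 4 of 5 kinetochore genes, 3 of 4 chromosome genes, 2 of 5 checkpoint genes, 2 of 5 spindle genes, 1 of 3 passenger genes, 1 of 5 genes of cytokinesis, 1 of 5 kinases and 1 of 6 genes of mitotic entry rose, and 0 of 3 genes of anaphase and 0 of the transcription factors did. Other values moved too: Gdf10 and Prelp were higher at 4 weeks (2.00, adjusted p = 0.00643; 1.44, adjusted p = 0.00734) and Bmp7 lower (-1.93, adjusted p = 0.000133). Also higher at 4 weeks were 6 of 9 B lymphocyte markers (median log2 fold change 3.26), 2 of 7 osteoblast, 2 of 8 macrophage and 1 of 9 erythroid markers. B lymphocyte marker sums were 1849 to 2864 in 4-week HZ and 398 to 1261 in 1-week HZ, where Vpreb1 was at 0. Depth was 17773071 to 26106573 reads a library in 4-week HZ and 7817389 to 11067652 in 1-week HZ, and its part was not tested. With scores for B lymphocytes and erythroid cells in the model no member was called (median 0.35, with 0.808% of all genes called), in a fit of the HZ libraries alone 4 were, and by limma-voom 8. Without library 3 of the 1-week group 9 members were called, and without library 4 of that group 23. In mouse HZ 1 of 48 members rose (Aurkb, 0.85, adjusted p = 0.0185) and 2 fell (Mybl2, -1.24, adjusted p = 0.0235, and Tpx2, -0.83, adjusted p = 0.0262), when 8.83% and 6.72% of all genes did, and the median was 0.03. Without HZ library 2 or 3 of the 4-week group only Aurkb was called.

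Comparing bones within a zone at 1 week asks whether the shorter bone differs from the longer bone. In PZ few members were called. In mouse 0 of 48 members were called (limma, adjusted p below 0.05; 1 at an unadjusted p below 0.05, and 0 by limma-voom on recovered reads), when 3.23% of all genes were higher and 1.86% lower in phalanx, and the median was -0.11. In rat Cdc25b rose (log2 fold change 0.93 ± 0.28, adjusted p = 0.0244) and Plk1 fell (log2 fold change -0.78 ± 0.25, adjusted p = 0.0375), 1 and 1 of 43, when 6.77% and 3.67% of all genes did; the median was -0.10. Rat Cdc25b had 806, 578, 684, 454 and 411 in phalangeal PZ, against 328, 269, 271, 292 and 339 in tibial PZ, with no overlap. Rat Plk1 had 297, 219.6, 259.6, 487 and 193 in phalangeal PZ, against 675, 316, 603, 398 and 475 in tibial PZ, with overlap at phalangeal library 4. Without phalangeal library 1 or 3, or tibial library 3, neither was called; without phalangeal library 2 or 5, or tibial library 1 or 5, Cdc25b alone was, and without tibial library 2 Plk1 alone. With the B lymphocyte and erythroid scores in the model the sign of Cdc25b turned (-0.42, adjusted p = 0.846), but the scores and the bone cannot be told apart in that fit. Mmp13, an HZ marker, was higher in rat phalangeal PZ (4.06, adjusted p = 0.00184), as were 9 of 9 erythroid, 5 of 7 osteoblast, 4 of 7 neutrophil, 3 of 8 macrophage and 2 of 9 B lymphocyte markers. Erythroid marker sums were 4463 to 11976 in phalangeal PZ and 2349.8 to 2770.2 in tibial PZ.

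In HZ the rat phalanx held more mitotic transcript than the rat tibia. 29 of 43 members rose and 0 fell, when 19.7% of all genes rose and 16.3% fell, and the median was 1.36, a 2.57-fold higher level, against 0.13 over all genes. The rises were largest for Ttk (log2 fold change 2.46 ± 0.49, adjusted p = 0.000197), Pttg1 (log2 fold change 2.16 ± 0.69, adjusted p = 0.0154) and Ccnb2 (log2 fold change 2.05 ± 0.39, adjusted p = 0.000116), and smallest for Tpx2 (0.69, adjusted p = 0.0129), Plk1 (0.82, adjusted p = 0.00987) and Mki67 (0.90, adjusted p = 0.00184). Tibial HZ library 3 was at 0 for Pttg1 and lowest for Ttk, so the sizes of both changes depend in part on it. For Pttg1 the size also depends on the added count of 1. The Pttg1 call held whichever single library was left out, but was lost under 2 of 10 other settings (limma adjusted p of 0.124 and 0.170). By role, 4 of 6 genes of mitotic entry, 3 of 5 kinases, 1 of 3 passenger genes, 3 of 5 checkpoint genes, 2 of 5 kinetochore genes, 3 of 5 spindle genes, all 3 genes of anaphase, 4 of 5 genes of cytokinesis, all 4 listed chromosome genes and both transcription factors rose. Rat Top2a had 2730.3, 2117, 3326, 2963 and 3182 in phalangeal HZ, against 1786, 881, 509, 1858 and 619 in tibial HZ, and every phalangeal library was above the highest tibial library. Rat Cdc20 had 115, 151, 118, 148 and 167 in phalangeal HZ, against 27.6, 76.4, 44.7, 68.3 and 58.7 in tibial HZ, again without overlap. Rat Aurkb had 403, 314, 317, 562 and 362 in phalangeal HZ, against 105, 76.4, 98.3, 205 and 125 in tibial HZ, also without overlap. Rat Foxm1 had 566, 410.4, 913, 430.2 and 456 in phalangeal HZ, against 409.9, 164, 129.6, 286 and 145 in tibial HZ, where tibial library 1 nearly met the lowest phalangeal library. The count was 28 to 32 when single libraries were left out. Beside it, Gdf10 (2.45, adjusted p = 0.000319) and Mmp13 (2.49, adjusted p = 0.0221) were higher in the phalanx, as were 6 of 8 macrophage, 4 of 7 osteoblast, 4 of 9 B lymphocyte and 3 of 7 endothelial markers, and 11 of 11 chondrocyte markers were lower. Macrophage marker sums were 9847 to 19688 in phalangeal HZ and 2739 to 9499 in tibial HZ. Depth was 17075567 to 22676633 reads a library in phalangeal HZ and 7817389 to 11067652 in tibial HZ, without overlap. Bone and depth therefore cannot be told apart here. The part of these cells and of depth in the result was not tested. In mouse HZ 2 of 48 members, Aurkb (log2 fold change 0.85 ± 0.25, adjusted p = 0.0148) and Ttk (log2 fold change 1.14 ± 0.37, adjusted p = 0.0276), rose and 0 fell, when 9.77% and 9.2% of all genes did, with a median of 0.24. That count was 7 without tibial HZ library 1, 0 without tibial library 3, and 1 without tibial library 5 or phalangeal library 3, 4 or 5.

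Each of these comparisons within HZ or PZ shares libraries with the zone comparisons, so their values are not independent of those given earlier.

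Of 72 more names of genes with known mitotic functions, 68 were tested in mouse and 52 in rat. Some of the names are an older and a newer name of the same gene, such as Casc5 and Knl1. In the 1-week tibia 52 fell and 1 rose in mouse HZ, and 43 fell and 2 rose in rat HZ. Of all genes there, 23.7% fell and 20.4% rose in mouse, and 19% fell and 22.6% rose in rat. In the 4-week tibia 23 fell and 1 rose in mouse (all genes: 16.6% lower, 18.6% higher) and 23 fell and 0 rose in rat (all genes: 7.82% lower, 13.5% higher). In the phalanx 23 fell and 0 rose in mouse (all genes: 17.2% lower, 17.9% higher) and 15 fell and 1 rose in rat (all genes: 17.7% lower, 22.9% higher). With the smallest adjusted p in mouse 1-week tibia these were Cenpi, a centromere protein (log2 fold change -2.40, adjusted p = 2.02e-06), Zwint, a kinetochore protein, which rose (log2 fold change 1.03, adjusted p = 2.33e-06), Kif15, a spindle kinesin (log2 fold change -1.40, adjusted p = 1.97e-05), and Aspm, a spindle pole protein (log2 fold change -1.60, adjusted p = 2.02e-05). In rat they were Ska1, which couples kinetochores to microtubules (log2 fold change -2.38, adjusted p = 2.32e-09), Cit, which encodes citron kinase of the cleavage furrow and which rose (log2 fold change 1.66, adjusted p = 4.73e-09), Psrc1, a microtubule protein (log2 fold change -5.61, adjusted p = 7.16e-09; with 4 of 5 HZ libraries at 0, this change depends on the added count of 1) and the kinesin Kif18b (log2 fold change -1.88, adjusted p = 7.68e-08). Between rat phalangeal and tibial HZ, 32 of 52 rose and 1, Cit, fell (log2 fold change -1.77, adjusted p = 3.26e-09), when 19.7% of all genes rose and 16.3% fell.

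Subunits of the anaphase-promoting complex and of cohesin, which serve dividing cells but are also made outside mitosis, had smaller median changes than the mitotic genes in the 1-week tibia but not in the rat phalanx. Of 15 subunits of the anaphase-promoting complex in mouse and 13 in rat, 4 fell and 0 rose in mouse 1-week tibial HZ and 3 fell and 0 rose in rat, at medians of -0.25 and -0.24. Shares of that size were near those over all genes, of which 23.7% fell in mouse and 19% in rat. Cdc16 had the smallest adjusted p in both, in mouse (log2 fold change -1.21, adjusted p = 3.96e-08) and in rat (log2 fold change -0.78, adjusted p = 9.57e-05), and Cdc23 also fell in both (log2 fold change -0.97, adjusted p = 0.00034 in mouse; log2 fold change -0.56, adjusted p = 0.0132 in rat). Of all genes, 20.4% rose in mouse and 22.6% in rat. Of 10 genes for cohesin, the ring that holds sister chromatids together, and its loaders in mouse (median -0.01), 3 fell and 1 rose, and of 7 in rat (median -0.14) 2 fell and 1 rose. In mouse these were Pds5b (log2 fold change -0.60, adjusted p = 0.000136), Stag1 (log2 fold change -0.54, adjusted p = 0.00102) and Smc3 (log2 fold change -0.39, adjusted p = 0.013), which fell, and Stag2 (log2 fold change 0.52, adjusted p = 0.016), which rose; in rat Stag1 (log2 fold change -0.68, adjusted p = 0.00384) and Smc1a (log2 fold change -0.80, adjusted p = 0.00487) fell and Rad21 (log2 fold change 0.43, adjusted p = 0.0403) rose. In the rat phalanx 7 of 13 subunits of the anaphase-promoting complex (median -0.59) and 5 of 7 cohesin genes (median -0.61) fell, against 9 of 43 mitotic genes (median -0.29) and 17.7% of all genes.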

How the data were processed

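RNA came from PZ and HZ of single animals, cut by laser from fresh-frozen sections, amplified with the Ovation RNA-Seq System V2 and made into libraries with Nextera XT. Per the labels and methods, the authors aligned reads to mm10 or rn6 with STAR 2.4.2, assigned them to genes with featureCounts 1.4.6 and scaled the counts by the relative log expression of DESeq2. The deposited values were log2(normalized count + 1), and the tables of mouse and rat were normalized separately. Of 20181 mouse and 15406 rat rows, 26 and 27 had names turned into dates or blank and were left out, as were 216 second rows of a rat symbol. Whole reads could be recovered from the steps between values (tolerance 0.05 reads, for values under 200 reads), which gave the depth of each library.

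Genes that reached a normalized count of 10 in 5 or more libraries were tested with limma 3.58.1 (R 4.3.3), all 6 groups of a species in 1 fit with trended and robust variance, and p-values were adjusted by Benjamini-Hochberg over all genes tested. Simulated data for the 1-week tibia held 100 genes changed 2-fold and 100 changed 4-fold. In mouse (15213 genes) 23% and 62% of these changes were recovered, and in rat (11760 genes) 31% and 71%. In the real data far more genes were called there (23.7% lower and 20.4% higher in mouse, 19% and 22.6% in rat). The p-value adjustment depends on that share, so these rates do not give the recovery in the real tests. The members and gene lists were chosen with earlier results of these data known. Named were 18 genes covering each role, per comparison the 3 largest and 3 smallest changes among called members, members called against the main direction or at the highest or lowest level, and the 2 to 4 smallest adjusted p of other lists. Alternatives were another added count (4), no filter and a filter at 50, quantile and library-total scaling, the replicate number as a block, a fit of the compared groups alone, array weights, limma-voom on recovered reads, marrow scores (the mean level of B lymphocyte and of erythroid markers), and each library left out in turn. Libraries of 1 group came from different animals, but the labels do not tie replicate numbers across zones to animals. Whether counting used strand is not given in the sources used here, so reads of overlapping genes cannot be told apart. Python 3.11.15 was used for tables and figures.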

Additional observations from a re-analysis of the deposited data

Results flagged for a closer look

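Single libraries stood far from their group in 16 of 222 groups examined (7.21%), counting the 18 genes followed in every library and the mean member level; chance alone gives about 1 in 20. The measure is the gap to the nearest library as a share of the group's range, on the log2 scale. In the mouse phalanx PZ, with 4 libraries, library 4 was highest for the mean member level (8.98, share 0.831), Ccnb1 (339.9 normalized counts, 0.836), Prc1 (1483, 0.847) and Mki67 (15015, 0.906). In the mouse 1-week tibial PZ, library 2 was lowest for Aurkb (369, 0.808), Ndc80 (83.9, 0.774) and Top2a (1956, 0.86), and library 1 for Bub3 (371, 0.79). In the mouse phalanx HZ, library 4 was lowest for Cdc20 (50.9, 0.815) and library 2 highest for Top2a (2339, 0.71). In the mouse 4-week tibial PZ, library 2 was highest for Foxm1 (923, 0.716). In rat, library 1 was lowest for Bub1 in 1-week tibial PZ (1194, 0.718), library 5 lowest for Bub3 in phalangeal PZ (242, 0.716), library 4 highest for Mki67 in 1-week tibial HZ (5935, 0.71), library 5 lowest for Prc1 in 4-week tibial HZ (514, 0.74) and library 1 highest for Prc1 in 4-week tibial PZ (2287, 0.807).

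The zone difference itself differed between growth plates, by a limma interaction term, for 28 combinations of gene and comparison; the values are differences of log2 fold changes. Between 4-week and 1-week tibia it was 1.40 for mouse Aurkb, and 1.57 for Spc25, 1.16 for Bub1b and -1.37 for Cdc25b in rat. Between phalanx and tibia it was 1.33 for mouse Aurkb. In rat it was 3.23 for Ttk, 2.42 for Melk, 2.39 for Spc25, 2.00 for Cdc20, 1.79 for Ccnb1, 1.76 for Racgap1, 1.75 for Mad2l1, 1.67 for Ube2c, 1.61 for Plk1, 1.55 for Ndc80, 1.53 for Nusap1, 1.50 for Foxm1, 1.49 for Aurkb and for Top2a, 1.47 for Cdk1 and for Kif11, 1.39 for Ccna2, 1.37 for Mybl2, 1.32 for Smc2, 1.25 for Kif23, 1.20 for Smc4, 1.09 for Kif20a and -1.35 for Cdc25b. Rat 1-week tibial HZ, which enters both rat contrasts, had the lowest depth of the rat groups (7817389 to 11067652 reads a library).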

How the results depend on the processing

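Counts of called members are given; causes of the shifts were not tested. With array weights the count was 26 instead of 17 in mouse 4-week tibia, 25 instead of 7 for age in mouse PZ, 0 instead of 3 for age in mouse HZ, 1 instead of 0 for bone in mouse PZ, 0 instead of 2 for bone in mouse HZ, 37 instead of 22 in rat 4-week tibia, 3 instead of 1 for age and 1 instead of 2 for bone in rat PZ, and 12 instead of 3 for the rat zone difference between ages. By limma-voom on recovered reads it was 17 for age in mouse PZ, 1 for age and 0 for bone in mouse HZ, 8 instead of 15 for age in rat HZ, 0 for bone in rat PZ and 0 for the rat zone difference between ages. With marrow scores it was 3 for age in mouse PZ, 0 for age in mouse HZ, 0 for the mouse zone difference between ages, 25 instead of 43 in rat 1-week tibia, 0 for age and 0 for bone in rat PZ, 0 for age in rat HZ and 0 for the rat zone difference between ages; the sign of rat Cdc25b turned for age (-0.15) and bone (-0.42) in PZ. With only the groups compared it was 30 for age in mouse PZ, 0 for age and 0 for bone in mouse HZ, 3 for age and 1 for bone in rat PZ and 4 for age in rat HZ. Scaling to library totals moved the median of all genes by up to 0.41 and quantile normalization by up to -0.20; totals gave 10 in mouse 4-week tibia, 10 in mouse phalanx, 17 for age in mouse PZ, 16 for bone in mouse HZ, 7 and 8 instead of 1 each for the mouse zone differences between ages and bones, and 1 for bone in rat PZ. Quantile normalization gave 1 for bone in mouse HZ, and no filter gave 1 for the rat zone difference between ages. The other counts stayed within 1.5 times.

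Whether a replicate number marks the same animal in both zones could not be settled. In no comparison did every same-numbered pair correlate above 0.1, nor did every library correlate best with its own number. In each zone comparison, however, more libraries than not correlated best with their own number. These correlations were low, at most 0.29 (rat 4-week tibia, replicate 3). The main fit ignored any such pairing. With the replicate number as a block the count was 28 for age in mouse PZ, 0 for age and 0 for bone in mouse HZ, 0 for the mouse zone difference between bones, 35 in rat 4-week tibia, 3 for age and 1 for bone in rat PZ and 8 for age in rat HZ.

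Leaving out each library in turn gave 29 to 39 calls in mouse 1-week tibia, 11 to 19 in 4-week tibia, 13 to 18 in phalanx, 2 to 7 for age in PZ, 1 to 4 for age in HZ, 0 to 0 for bone in PZ, 0 to 7 for bone in HZ, and 0 to 1 and 1 to 2 for the zone differences between ages and bones. In rat it gave 38 to 43, 14 to 25 and 7 to 11 in the same 3 plates, 1 to 1 for age in PZ, 9 to 23 for age in HZ, 0 to 2 for bone in PZ, 28 to 32 for bone in HZ, and 0 to 10 and 16 to 30 for the zone differences. Over called genes and these omissions, 2249 calls held and 333 were lost; over the other alternatives 2091 held, 225 were lost and 2 turned in sign. Genes named without a call gained one in 4 and 5 cases. Members at a few reads, such as rat Kif2c and Cenpa, allow no firm fold change at this depth.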
